A study of Saccharomyces cerevisiae with 6 samples.

Results

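In a stranded RNA sequencing series of budding yeast (Saccharomyces cerevisiae), 48 long gene names had far lower normalised read counts after 1 h of nitrogen starvation than in control. The names were chosen by a rule: an mRNA name of at least 1000 bases, at least 15 normalised reads in the lower of the 2 control libraries, and a higher nitrogen library at least 3 times below that lower control value. Of the 7127 features listed, 3488 were long mRNA names, 408 of these had the control level, and 48 (11.8% of the 408) met the whole rule. The rule used the nitrogen and control values, so their difference is described and not tested; the potassium libraries took no part in it. The 3 groups of 2 libraries were compared, all from strain BY4741, a haploid laboratory strain with its HIS3, LEU2, MET17 and URA3 genes deleted. The groups were cells in log phase starved of nitrogen for 1 h, cells starved of potassium for 1 h, and cells left growing in synthetic complete medium for 1 h with no treatment. The labels tell libraries of a group apart by replicate and batch number alone, so the spread behind the p-values is that between libraries and may be technical. In bulk RNA, fewer cells and less RNA per cell cannot be told apart.

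Nitrogen starvation stops growth in yeast. Cells shut down the TORC1 kinase pathway, reduce the making of ribosomes and translation factors, and turn on permeases and enzymes for poor nitrogen sources. Potassium is the main cation of the cytoplasm and is taken up by the Trk transporters. In a strand-specific library each read is assigned to a strand, and a name collects the reads counted on its strand; the strand setting used in the counting is not given in the sources used here. A value is therefore given as the level of a name, and the roles named below are those of the proteins the genes encode. The reads under a name may lie on the strand opposite the gene. A fall of a name is thus not shown to be a fall of that gene's own mRNA. What the files show of the names on the opposite strand is given after the roles.

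A set of 8 of the names held a run of purines (A or G) on their coding strand, with 55 or more in a window of 60 bases. Their richest windows are shown because the rule used no sequence and such windows were more frequent among the 48 than among other long names with the same control level (shares below). All lie in single coding exons of the R64 build, with sequence from RefSeq, 5′ to 3′ on the strand of the gene. Capitals mark A and G. The last window belongs to NOP58, the partner of NOP56 in box C/D small nucleolar RNA particles, which had an unbroken run of 60 purines but too few reads for the rule.
NOP56, chrXII:547483-547542, plus strand: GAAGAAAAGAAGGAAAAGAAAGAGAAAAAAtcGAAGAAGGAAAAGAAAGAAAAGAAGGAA
CBF5, chrXII:507433-507492, plus strand: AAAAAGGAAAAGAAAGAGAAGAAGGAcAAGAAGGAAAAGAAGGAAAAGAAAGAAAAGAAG
NOP7, chrVII:696332-696391, plus strand: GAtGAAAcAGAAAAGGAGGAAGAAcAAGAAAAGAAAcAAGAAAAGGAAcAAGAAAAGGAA
DRS1, chrXII:132235-132294, plus strand: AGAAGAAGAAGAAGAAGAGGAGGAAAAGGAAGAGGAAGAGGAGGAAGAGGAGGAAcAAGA
KRI1, chrXIV:54580-54639, minus strand: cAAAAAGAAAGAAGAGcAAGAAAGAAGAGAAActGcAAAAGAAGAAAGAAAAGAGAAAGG
FUN12, chrI:77484-77543, plus strand: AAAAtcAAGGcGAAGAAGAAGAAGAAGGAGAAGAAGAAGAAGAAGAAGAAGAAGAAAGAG
FPR3, chrXIII:120607-120666, minus strand: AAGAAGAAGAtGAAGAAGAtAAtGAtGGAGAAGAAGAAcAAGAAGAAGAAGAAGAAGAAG
TAF2, chrIII:204411-204470, minus strand: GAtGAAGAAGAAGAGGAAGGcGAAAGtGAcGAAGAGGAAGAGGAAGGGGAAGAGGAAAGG
NOP58, chrXV:896864-896923, minus strand: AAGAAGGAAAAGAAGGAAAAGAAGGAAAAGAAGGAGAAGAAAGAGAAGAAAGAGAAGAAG

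The libraries were shallow, with 357839 and 374245 reads under nitrogen starvation, 359355 and 402342 under potassium starvation, and 425919 and 418010 in control. The 48 names held 0.766% and 0.595% of reads in nitrogen, 1.721% and 1.206% in potassium, and 1.492% and 1.178% in control. The related cell surface genes CSS1 and HPF1 took most of these reads, and without them the shares were 0.211% and 0.199% in nitrogen, 0.39% and 0.272% in potassium, and 0.591% and 0.531% in control. Long mRNA names as a whole went the other way, with 33.6% and 31.4% of reads in nitrogen, 13.7% and 7.40% in potassium, and 7.91% and 6.73% in control. The authors' scaling made 1 read worth 0.577 and 0.567 normalised reads in nitrogen, 1.03 and 1.60 in potassium, and 1.25 and 1.49 in control, so the scaling adds to each nitrogen fall. With library size alone as the scaling, 15 of the 48 met the rule. The median log2 difference of the 48 (nitrogen minus control) was then −1.44, against −2.90 with the deposited scaling. All 48 lay lower in both nitrogen libraries than in both control libraries under either. Under the deposited scaling that order follows from the rule, and under library size the rule leaves it almost no room to differ, so it is no separate support. The potassium libraries differed from each other more than other pairs, with a chi-square per degree of freedom of 28.8, against 8.16 for nitrogen and 7.59 for control.

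Under potassium starvation, 13 of the 48 names (27.1%) were lower than in control at an adjusted p below 0.05 by edgeR's quasi-likelihood test with Benjamini-Hochberg adjustment over 2325 features. The background was 4.6% called lower and 4.73% called higher among all features tested, and 6.11% called lower among the 360 long names that had the control level but did not meet the rule. None of the 48 was called higher by edgeR, DESeq2 or limma, and 0 were higher at an unadjusted p below 0.05, where 26 were lower. The median log2 difference (potassium minus control) of the 48 was −1.14, with quartiles of −1.78 and −0.47, against −0.06 for the 360 and 0.01 for all features. Both potassium libraries lay below both control libraries for 38 of the 48 (79.2%), for 35.3% of the 360 and for 27.4% of all features. The potassium comparison uses the same control libraries as the rule, which favours names whose control values were high by chance. The 360 shared the lowest control level but not the 3-fold condition, so they are not an equally chosen background, and how much of the difference between the sets comes from the choice was not tested. Within batch 1 the median of the 48 was −1.48 and within batch 2 −0.83, against −0.05 and −0.11 for the 360.

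**Figure D1:**
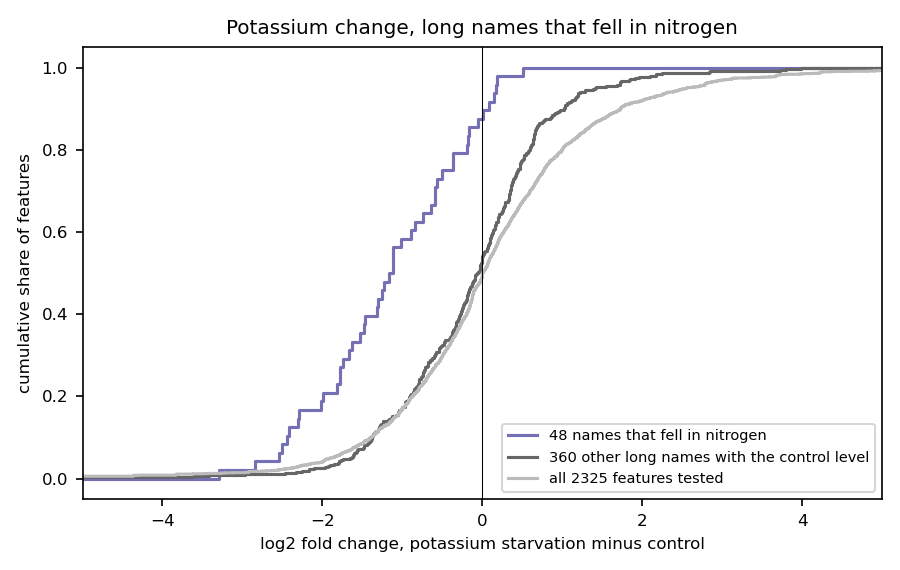
Cumulative share of names (y axis, 0 to 1) by log2 fold change, potassium minus control (x axis), for the 48 names, the 360 other long names with the control level, and all 2325 features tested. The curve of the 48 lies to the left, with a median of −1.14 against −0.06 and 0.01.

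The call rested on few libraries. Without potassium library 1, 2 of the 48 were called lower, without control library 2 there were 3, and without control library 1 there were 5; CBF5 was the 1 name of the 13 called in each of the 6 fits that left out a library. The names called without potassium library 1 include TEF1, which shares reads with TEF2 and is not among the 13. Its log2 difference there was −8.77, on 0 reads in potassium library 2, where the counting gave the shared reads to TEF2. With library size alone as the scaling, 4 of the 48 were called. The median log2 difference of all features was 0.32 under that scaling and 0.22 with scaling over features opposite a gene, against 0.01 with TMM.

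Ribosome assembly was the role with the steepest nitrogen falls among the groups formed here, after the values were seen. Its 8 names had a median log2 difference of −4.48 in nitrogen (minus control) and −1.92 in potassium. In potassium 4 of the 8 were called lower, against 13 (27.1%) of all 48 and 4.6% of all features tested. NOP56 encodes a core protein of box C/D particles, which guide methylation of ribosomal RNA. It had 5.19 and 7.37 normalised reads in nitrogen, 55.5 and 118 in potassium, and 329 and 268 in control. Both potassium libraries thus lay between the nitrogen and control libraries, with no overlap, and the potassium difference was −1.82 ± 0.35 (log2, SE; edgeR adjusted p = 0.015). CBF5, the pseudouridine synthase of box H/ACA particles, had 12.1 and 9.64 normalised reads in nitrogen, 47.3 and 97.3 in potassium, and 298.5 and 271 in control. It showed the same order of groups, and its potassium difference was −2.02 ± 0.33 (log2, SE; edgeR adjusted p = 0.0082).

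NOP7, a factor of 60S subunit assembly, had 4.04 and 0.567 normalised reads in nitrogen, 11.3 and 4.79 in potassium, and 48.9 and 41.7 in control. DRS1, a helicase of the same pathway, had 0 and 0.567 in nitrogen, 2.05 and 6.38 in potassium, and 26.3 and 29.8 in control. Both were lower in potassium, with log2 differences of −2.42 ± 0.62 for NOP7 and −2.85 ± 0.65 for DRS1 (SE; edgeR adjusted p = 0.044 and 0.031), on counts of 11 and 3 reads for NOP7 and 2 and 4 for DRS1. NSR1, the yeast nucleolin, had 0 and 1.70 normalised reads in nitrogen, 4.11 and 1.60 in potassium, and 16.3 and 19.4 in control, a potassium difference of −2.50 that missed the threshold (edgeR adjusted p = 0.087). RRP14 and KRI1, both needed to process ribosomal RNA, differed by −1.12 and −0.89 in potassium (edgeR adjusted p = 0.23 and 0.33). ESF1, a factor of 18S ribosomal RNA maturation, stood apart from these. Its values were 4.04 and 3.40 in nitrogen, 18.5 and 19.2 in potassium, and 16.3 and 16.4 in control, and its potassium difference of 0.19 did not pass the test (edgeR adjusted p = 0.83).

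In a list of 37 ribosome assembly genes, 36 were long names, 10 had the control level and 7 met the rule, while NOP4, DBP3 and BMS1 had the level and did not. Of its 17 genes tested in potassium, 4 were lower, all of them among the 48, and 0 were higher. The median of the 17 was −1.33. For this list and those below, the shares over all features tested were 4.6% called lower and 4.73% called higher. A list of 24 subunits of RNA polymerases I and III had 17 long names and 0 with the control level, and of 20 tRNA synthetases 0 had it.

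**Figure D2:**
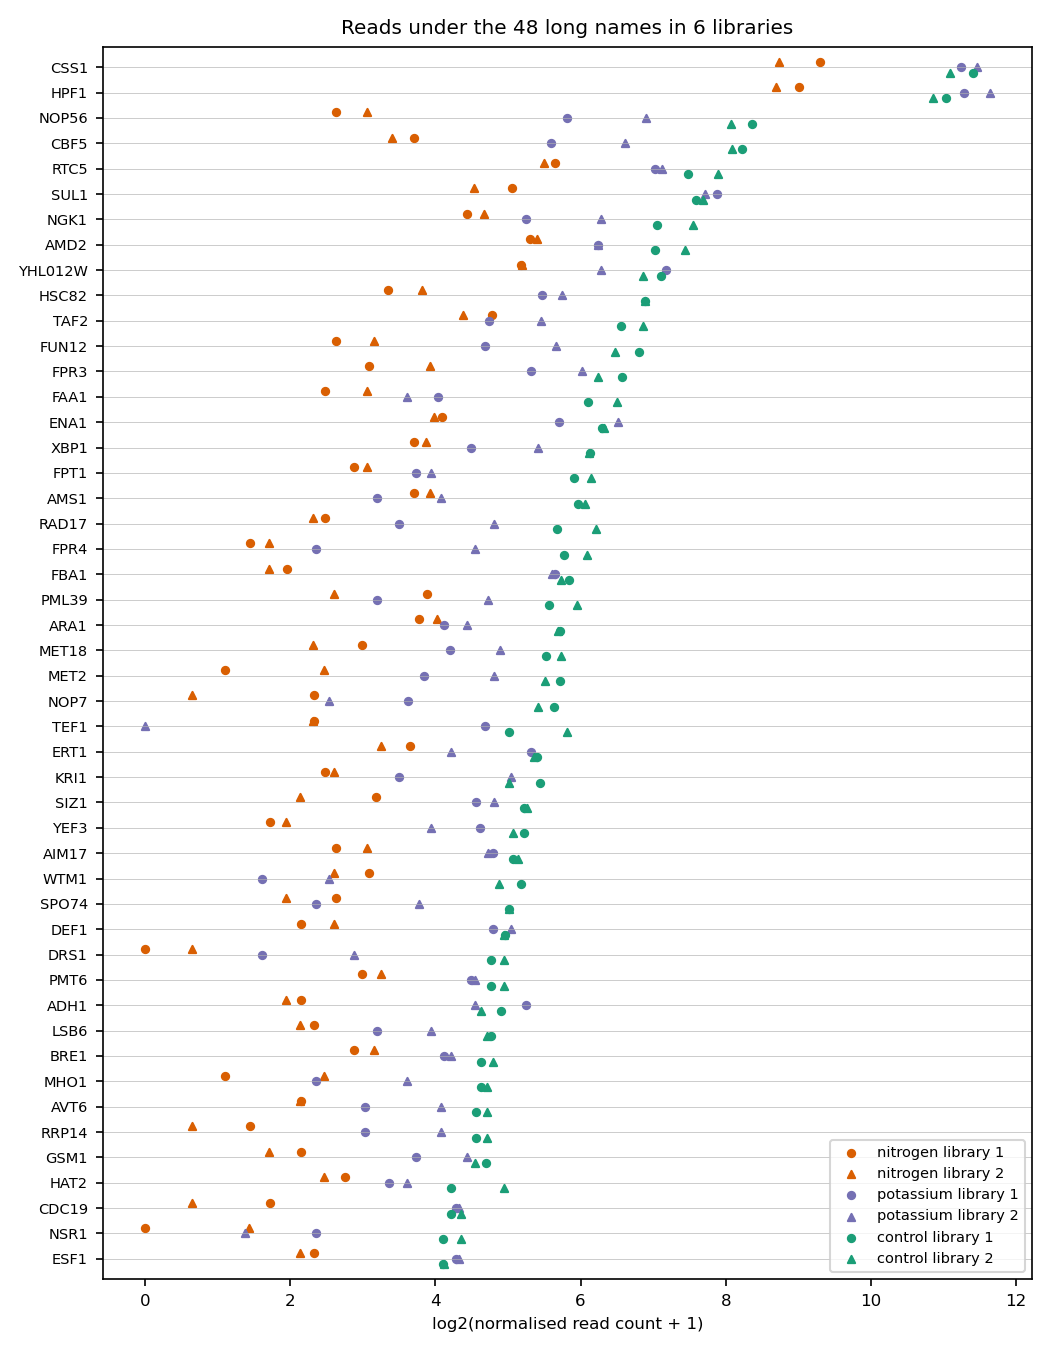
Normalised reads on the log2(value + 1) scale (x axis) in each of the 6 libraries for the 48 names (y axis), ordered by control mean; within a row nitrogen is on top, potassium in the middle and control below, with circles for batch 1 and triangles for batch 2. The nitrogen points lie lowest for most names, and the potassium points range from below the nitrogen points (WTM1) to above the control points (HPF1, SUL1, ESF1).

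Of the 3 translation factors, none was called in potassium. All 3 had both potassium libraries below both control libraries, as did 79.2% of the 48 and 27.4% of all features. FUN12, the initiation factor eIF5B that joins the ribosomal subunits, had 5.19 and 7.94 normalised reads in nitrogen, 24.7 and 49.5 in potassium, and 110.4 and 87.9 in control. Its potassium difference was −1.46 (edgeR adjusted p = 0.061). YEF3, the fungal elongation factor 3, had 2.31 and 2.83 in nitrogen, 23.6 and 14.4 in potassium, and 36.4 and 32.8 in control (potassium difference −0.85, edgeR adjusted p = 0.24). TEF1 and TEF2 encode the same elongation factor, and the counting divided reads between them. Together they held 7 and 7 reads in nitrogen, 24 and 14 in potassium, and 67 and 37 in control. The value of TEF1 alone, including its 0 in potassium library 2, is uncertain for that reason. Of 10 elongation factor genes listed, 2 had the control level and both are among the 48; of 23 initiation factor genes, FUN12 and TIF4631 had the level and FUN12 met the rule. Of the 6 initiation genes tested in potassium 1 was lower (DBP1), and of the 5 elongation genes 0 were called.

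The 3 glycolysis and fermentation names had steep nitrogen falls and potassium values close to control, with a median log2 difference of −3.82 in nitrogen and 0.01 in potassium. FBA1, the aldolase, had 2.88 and 2.27 normalised reads in nitrogen, 49.3 and 47.9 in potassium, and 56.4 and 52.1 in control. CDC19, the pyruvate kinase, had 2.31 and 0.567 in nitrogen, 18.5 and 19.2 in potassium, and 17.6 and 19.4 in control. Nitrogen libraries lay far below the rest, whereas the potassium and control libraries of CDC19 overlapped. The potassium differences were −0.17 ± 0.33 for FBA1 and 0.01 ± 0.48 for CDC19 (log2, SE; edgeR adjusted p = 0.80 and 1.0). ADH1, the main alcohol dehydrogenase of fermenting cells, had 3.46 and 2.83 in nitrogen, 37.0 and 22.3 in potassium, and 28.8 and 23.8 in control, but reads were divided between it and ADH2. Their sum was 194.8 and 139 in nitrogen, 121 and 158 in potassium, and 158 and 168 in control, so the pair together did not meet the rule. Of 21 glycolysis and fermentation genes listed, 4 had the control level, 3 met the rule, ENO2 did not, and 0 of 9 tested were called in potassium.

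Another 3 names encode protein folding factors. HSC82, the constitutive Hsp90 chaperone, had 9.22 and 13.0 normalised reads in nitrogen, 43.1 and 52.7 in potassium, and 118 and 118 in control. It was lower in potassium by a log2 difference of −1.32 ± 0.31 (SE; edgeR adjusted p = 0.035). FPR3 and FPR4 are nucleolar and nuclear prolyl isomerases of the FK506-binding family. FPR4 had 1.73 and 2.27 in nitrogen, 4.11 and 22.3 in potassium, and 53.9 and 67.0 in control. Its potassium difference of −2.31 missed the threshold (edgeR adjusted p = 0.056) and passed it with the batch as a block (−2.44, adjusted p = 0.027). FPR3 had 7.49 and 14.2 in nitrogen, 39.0 and 63.8 in potassium, and 94.1 and 74.5 in control (potassium difference −0.74, edgeR adjusted p = 0.28). HSC82 was the 1 gene of 18 chaperone genes listed that had the control level.

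The cell surface and transport names held most of the reads of the 48 and had a median log2 difference of −0.04 in potassium over 6 names, with 0 called. CSS1 and HPF1 encode related secreted, serine- and threonine-rich proteins. CSS1 had 630 and 426 normalised reads in nitrogen, 2421 and 2819 in potassium, and 2718 and 2183 in control. HPF1 had 515 and 412 in nitrogen, 2491 and 3180 in potassium, and 2094 and 1844 in control. They share a run of 174 identical bases, and 10.2% of the 31-base words of CSS1 occur in HPF1, so the division of reads between them is uncertain. Their sum, which does not depend on it, was 1145 and 838 in nitrogen, 4912 and 5999 in potassium, and 4812 and 4027 in control.

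SUL1, a high-affinity sulfate permease, had 32.3 and 22.1 normalised reads in nitrogen, 235 and 209 in potassium, and 191.9 and 206 in control. Its potassium values lay above both control values, as for HPF1 and ESF1, by a log2 difference of 0.15 that did not pass the test (edgeR adjusted p = 0.73). These 3 names are 6.25% of the 48, against 27.3% of all features with both potassium libraries above both control libraries. ENA1, the sodium pump, shares reads with ENA2 and ENA5, and the 3 together had 18.5 and 29.5 in nitrogen, 75.0 and 90.9 in potassium, and 102.8 and 89.4 in control. AVT6, a vacuolar amino acid exporter, and PMT6, a protein mannosyltransferase, differed by −1.12 and −0.37 in potassium (edgeR adjusted p = 0.20 and 0.60). Of 42 plasma membrane transport genes listed, 10 had the control level and SUL1 and ENA1 met the rule. In potassium 4 of the 27 tested were higher (HXT5, BAP2, MEP3 and FET3) and 1 lower (CTR1), none of them among the 48.

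Of 6 metabolic enzymes, 4 were called lower in potassium, against 27.1% of all 48. FAA1, a long-chain acyl-CoA synthetase, had 4.61 and 7.37 normalised reads in nitrogen, 15.4 and 11.2 in potassium, and 67.7 and 89.4 in control. AMS1, the vacuolar alpha-mannosidase that reaches the vacuole by the selective autophagy route, had 12.1 and 14.2 in nitrogen, 8.22 and 16.0 in potassium, and 61.5 and 65.5 in control. The nitrogen and potassium libraries of AMS1 overlapped, and both groups lay below control. The potassium differences were −2.54 ± 0.43 for FAA1 and −2.45 ± 0.45 for AMS1 (log2, SE; edgeR adjusted p = 0.0096 and 0.013). ARA1, an NADP-dependent arabinose dehydrogenase, and AMD2, a putative amidase, were lower in potassium by smaller differences, −1.48 ± 0.39 and −1.02 ± 0.26 (log2, SE; edgeR adjusted p = 0.048 and 0.043), and neither kept its call in any fit without 1 library. LSB6, a phosphatidylinositol 4-kinase, and MET2, the homoserine acetyltransferase of methionine synthesis, were not called (edgeR adjusted p = 0.13 and 0.17).

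Of 10 names with roles in chromatin, transcription and DNA repair, 2 were called lower in potassium, against 27.1% of all 48. WTM1, a nuclear anchor and transcriptional modulator, had 7.49 and 5.10 normalised reads in nitrogen, 2.05 and 4.79 in potassium, and 35.1 and 28.3 in control. It was the name with the largest potassium fall, −3.29 ± 0.58 (log2, SE; edgeR adjusted p = 0.011), and both potassium libraries lay below both nitrogen libraries. The potassium values rest on 2 and 3 reads, with 1 read worth 1.03 and 1.60 normalised reads, so the order of potassium and nitrogen is uncertain. TAF2, a subunit of the general factor TFIID, had 26.5 and 19.8 in nitrogen, 25.7 and 43.1 in potassium, and 92.8 and 114.7 in control, with a potassium difference of −1.63 ± 0.36 (edgeR adjusted p = 0.028). RAD17, a subunit of the checkpoint clamp, differed by −1.78 in potassium (edgeR adjusted p = 0.061, and 0.038 with the batch as a block). XBP1, a stress-induced repressor, had 12.1 and 13.6 in nitrogen, 21.6 and 41.5 in potassium, and 69.0 and 68.5 in control (edgeR adjusted p = 0.11). The other 6, BRE1, DEF1, ERT1, GSM1, HAT2 and SIZ1, had adjusted p from 0.16 (HAT2) to 0.96 (DEF1) by edgeR.

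A further 9 names were left outside these roles. FPT1 and NGK1 were lower in potassium. FPT1, a factor bound at tRNA genes, had 6.34 and 7.37 normalised reads in nitrogen, 12.3 and 14.4 in potassium, and 58.9 and 70.0 in control (−2.29 ± 0.40 log2, SE; edgeR adjusted p = 0.011). NGK1, a sugar kinase of the hexokinase family, had 20.8 and 24.4 in nitrogen, 37.0 and 76.6 in potassium, and 132 and 186 in control (−1.53 ± 0.38 log2, SE; edgeR adjusted p = 0.039). RTC5 had 49.0 and 44.2 in nitrogen, 129 and 139 in potassium, and 177 and 237 in control, and YHL012W 35.2 and 35.7 in nitrogen, 143.8 and 76.6 in potassium, and 137 and 115 in control. Neither passed the test in potassium (edgeR adjusted p = 0.12 and 0.76), nor did MET18, PML39, SPO74, MHO1 and AIM17 (0.066 for SPO74 to 0.59 for AIM17).

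**Figure D3:**
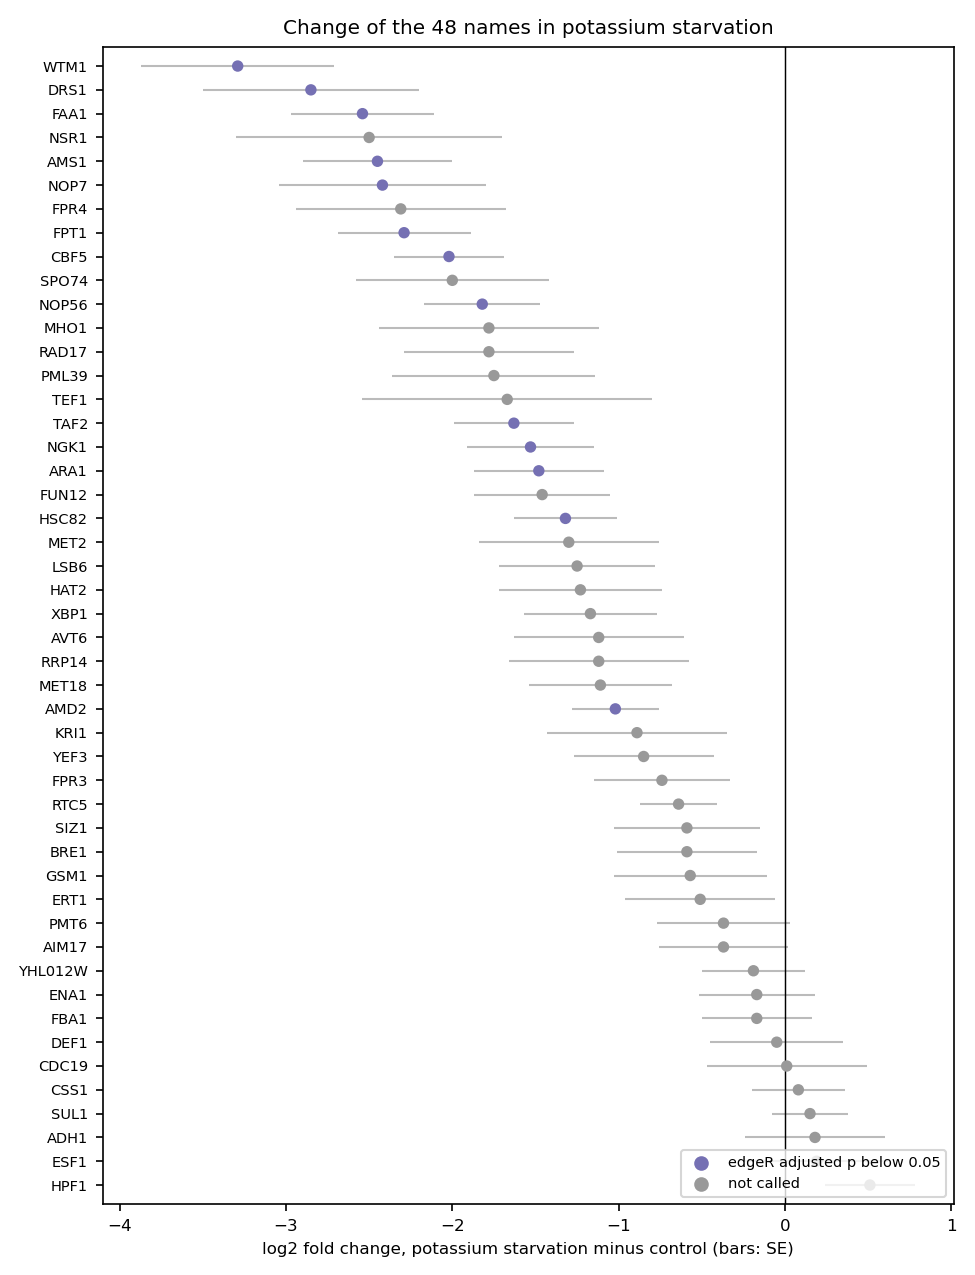
Log2 fold change with SE, potassium minus control, for the 48 names (y axis), ordered by the change and coloured where edgeR's adjusted p is below 0.05. WTM1 at −3.29 and HPF1 at 0.51 mark the ends, and 42 of the 48 lie below 0.

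Of the 48, 6 had another name overlapping them on the opposite strand, 1 annotated (TAF2 with YCR041W, 70 bases) and 5 that are reading frames listed in the files but not annotated in the reference. Unannotated overlaps were found for 10.4% of the 48, 6.7% of the 360 and 7.3% of the 3473 long names placed on the genome. Annotated overlaps were found for 2.1%, 2.8% and 1.1%. For 4 of the 5 unannotated frames the opposite name carried many times more reads than the gene's own, and the group means of both were lowest in nitrogen. YAL037C-B, opposite CDC19 over 963 bases, had 2700 and 2198 normalised reads in nitrogen, 35970 and 57610 in potassium, and 48550 and 48220 in control. Per kilobase, CDC19 held 0.0381% of the level of YAL037C-B in nitrogen, 0.0261% in potassium and 0.0247% in control. The rule did not use the values of the opposite names, but these were looked at because the names they overlap met it in the same libraries. Their p-values are therefore not independent of that choice, and the same holds for the facing genes below. YAL037C-B was lower in nitrogen by a log2 difference of −4.54 ± 0.62 (SE; edgeR adjusted p = 0.00061) and differed by −0.06 ± 0.54 in potassium (adjusted p = 0.97).

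YLR198C, opposite NOP56 over 326 bases, had 94.0 and 69.7 normalised reads in nitrogen, 1052 and 1739 in potassium, and 4649 and 4438 in control. Both starvations lay below control, by −6.03 ± 0.39 in nitrogen and −1.72 ± 0.32 in potassium (log2, SE; edgeR adjusted p = 2.2e-05 and 0.014). NOP56 stood at 1.82%, 1.48% and 1.56% of it per kilobase in nitrogen, potassium and control. YGR160W, opposite NSR1, had 117 and 35.7 in nitrogen, 500 and 1165 in potassium, and 4053 and 4993 in control, with log2 differences of −6.14 in nitrogen and −2.46 in potassium (edgeR adjusted p = 0.00014 and 0.027). NSR1 stood at 0.547% of it per kilobase in nitrogen, 0.168% in potassium and 0.194% in control, on 0 to 13 reads a library. YKL083W, opposite RRP14, had 210 and 183 in nitrogen, 842 and 1296 in potassium, and 2059 and 2661 in control, with differences of −3.82 and −1.16 (edgeR adjusted p = 5.1e-05 and 0.041). RRP14 stood at 0.275%, 0.51% and 0.478% of YKL083W per kilobase in the nitrogen, potassium and control groups. Which strand of the RNA gave the reads under either name was not tested.

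**Figure D4:**
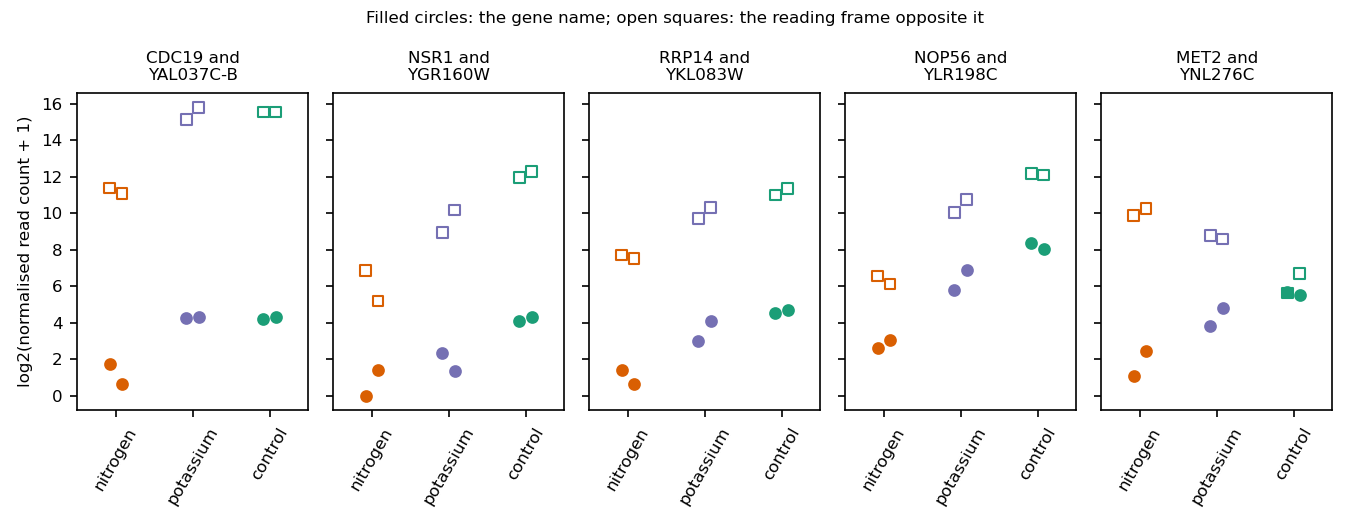
Normalised reads on the log2(value + 1) scale (y axis) in the nitrogen, potassium and control libraries for 5 of the 48 names (filled circles) and for the unannotated name opposite each (open squares). The means of both names are lowest in nitrogen for CDC19, NSR1, RRP14 and NOP56 (the nitrogen and potassium libraries of NSR1 overlap), whereas YNL276C, opposite MET2, is highest in nitrogen.

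MET2 was the exception. YNL276C, opposite it over 379 bases, had 937 and 1236 normalised reads in nitrogen, 444 and 389 in potassium, and 48.9 and 104 in control. It rose in nitrogen by 3.61 ± 0.37 and in potassium by 2.44 ± 0.36 (log2, SE; edgeR adjusted p = 0.00012 and 0.0064). MET2 itself had 1.15 and 4.53 in nitrogen, 13.4 and 27.1 in potassium, and 51.4 and 44.7 in control, the opposite order. Per kilobase it stood at 0.071% of YNL276C in nitrogen, 1.32% in potassium and 17.0% in control. The start of the frame YNL276C is printed to show where it meets the gene: capitals mark its own start codon and, on the same strand, CTA, the reverse complement of the stop codon of MET2.
YNL276C, chrXIV:118767-118826, minus strand: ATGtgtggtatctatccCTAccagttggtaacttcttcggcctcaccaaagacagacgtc

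Another 19 of the 48 (39.6%) faced a gene on the opposite strand whose annotated end lay within 300 bases of their own, against 28.9% of the 360 and 31.7% of 3473 placed long names. The other 23 (47.9%) had neither an overlapping name nor a facing gene, against 61.7% of the 360 and 59.9% of the placed names. Within 500 bases the shares with a facing gene were 43.8% of the 48, 35.8% of the 360 and 41.5% of all placed long names. In potassium, 5 of the 19 and 6 of the 23 were called lower, both close to the 27.1% called among all 48. At most facing genes the name held few reads. PRP28, a helicase of the spliceosome whose end lies 61 bases from that of AMD2, had the largest nitrogen change of the facing genes with enough reads to be tested. It had 621 and 392 normalised reads in nitrogen, 30.8 and 16.0 in potassium, and 21.3 and 29.8 in control, a nitrogen rise of 4.07 ± 0.36 (log2, SE; edgeR adjusted p = 6.4e-05). AMD2 had 38.6 and 41.4 in nitrogen, 75.0 and 75.0 in potassium, and 129 and 173 in control. The other facing genes tested changed less in nitrogen, by log2 differences of 1.0 for POL5, 1.22 for ELP2, 1.33 for YML108W and 0.07 for RIO1 (edgeR adjusted p from 0.05 to 0.93).

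Purine windows of the kind printed above were found in 8 of the 48 names (16.67%), in 9 of the 360 (2.5%) and in 15 of 3065 long names below the control level (0.49%). Windows as rich in pyrimidines were found in 0 of the 48 and 5 of all long names. Of the 32 long names with a purine window, 17 (53.1%) had the control level, against 11.4% of the other long names. Of these 17, 8 (47.1%) met the rule, against 10.2% of the 391 without one. In potassium, 4.6% of all features tested and 27.1% of the 48 were called lower. Of the 40 members without a window, 8 were called, with a median log2 difference of −1.12. Of the 8 with one, 5 were called (CBF5, DRS1, NOP7, NOP56 and TAF2), with a median of −1.73. All but TAF2 are the 4 ribosome assembly names called above, and KRI1 is also in both groupings, so these are not separate observations. The window and its threshold were chosen after the values were seen, so these shares carry no test.

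Of the 9 names with a window and the control level outside the 48, 6 lay lower in both nitrogen libraries than in both control libraries (RPN2, NAB3, RQC2, MTC1, PPN1 and NST1) and 3 lay higher (MNN4, HOS4 and AIM44). For scale, the log2 nitrogen difference was below 0 for 183 of the 360 and for 1016 of the 2325 features tested. That is a looser measure, and the share with both libraries lower was not counted, so the 9 are not shown to differ from other names. MNN4, a regulator of mannosylphosphate on cell wall glycans with a window of 60 purines, had 530 and 659 normalised reads in nitrogen, 248 and 271 in potassium, and 174 and 156 in control. HOS4, a subunit of a histone deacetylase complex, with 55 purines, had 238 and 258 in nitrogen, 273 and 144 in potassium, and 53.9 and 32.8 in control. NOP58 had 0 reads in all nitrogen and potassium libraries and 2.51 and 2.98 normalised reads in control.

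**Figure D5:**
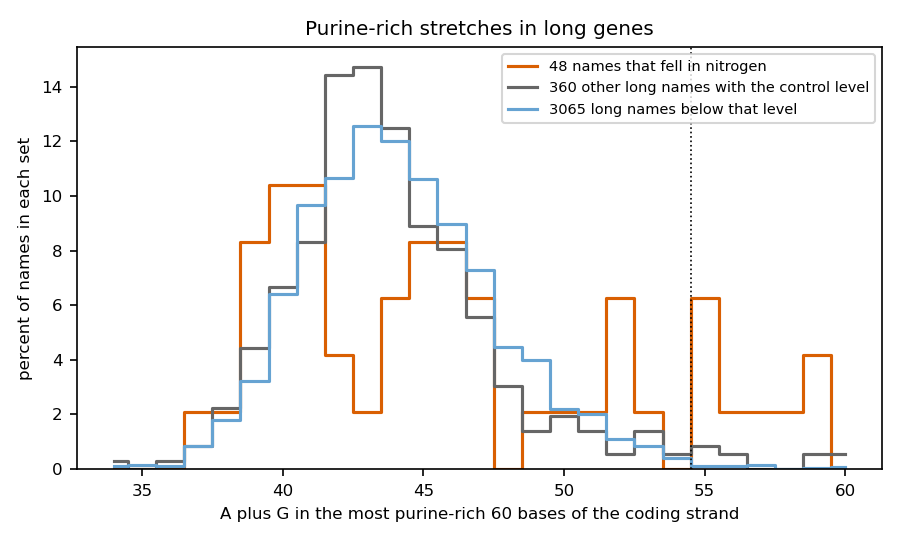
Percent of names in each set (y axis) by the number of A and G in the most purine-rich 60 bases of the coding strand (x axis), for the 48 names, the 360 other long names with the control level and 3065 long names below it. Right of the dotted line, at 55 or more purines, lie 16.67% of the 48, 2.5% of the 360 and 0.49% of the 3065.

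At the edge of the rule, the ratio of the higher nitrogen to the lower control value was 0.32 for AMD2, 0.323 for PMT6, 0.328 for HAT2 and 0.333 for BRE1, just inside. Just outside lay the peptide transporter PTR2 (0.335), ARG1 of arginine synthesis (0.336), SDS24 (0.339) and ARO10, a decarboxylase of the Ehrlich pathway (0.345). PTR2 had 46.7 and 36.8 normalised reads in nitrogen, 71.9 and 121 in potassium, and 139 and 165 in control, so names on both sides of the limit had similar falls.

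The remaining lists gave few of the 48. Of 54 amino acid synthesis genes, 0 met the rule, and 1 was lower in potassium (GDH3) and 1 higher (ILV1) of 14 tested. Of 21 genes of sulfur and methyl metabolism, MET2 and STR2 had the level and MET2 met the rule, with 0 of 10 called in potassium. Of 38 genes under nitrogen catabolite repression, which yeast turns on when good nitrogen sources run out, 6 had the level (MEP1, MEP3, DAL4, PRB1, APE1 and OPT2) and 0 met the rule. Of its 20 genes tested in potassium 1 was higher (MEP3) and 0 were lower. Purine and pyrimidine synthesis, sterol and fatty acid synthesis, cell wall glycosylation and mitochondrial metabolism had 0 of the 48 and 0 calls in potassium among 8, 11, 6 and 3 genes tested, and of 5 polymerase genes tested RPA34 was lower.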

How the data were processed

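For each library the authors deposited estimated counts over 7127 features, in salmon's column layout per the file headers. To set names side by side per kilobase, group means of the normalised counts were divided by the length of each name. The deposited TPM (per-length) values were not used for that. A deposited table of DESeq2-normalised counts is a signal, counts divided by 1 size factor per library, and gave the values printed. Multiplying it back gave whole reads in 100.0% of values, 100.0% of them equal to the rounded estimated counts (tolerance 0.001 reads). The count test on those reads is therefore the same test and calls 217 features in potassium. Build R64, DESeq2 and STAR 2.7.3a are named in the submitters' processing notes. Neither the version of the quantifier nor how it treated strand is stated in the sources used here. The library kit, KAPA mRNA HyperPrep per the labels' protocols, takes polyadenylated RNA and is stranded.

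Rounded estimated counts were tested with edgeR 4.0.16 (R 4.3.3): TMM, filterByExpr, 1 fit to all 6 libraries (residual degrees of freedom: 3), and a threshold of 0.05 on p adjusted by Benjamini-Hochberg over the 2325 features kept. All 48 names passed the filter, which they do through their control values. Alternatives were DESeq2 1.42.0, limma 3.58.1 on log2 of normalised counts plus 1 or 4, other scalings and filters, a replicate block and leaving out each library. The labels give same-numbered libraries a shared batch, so the numbers pair them, although correlations of their deviations were −0.001 to 0.064. On simulated data for potassium against control (2325 features), 15 of 50 features with a log2 change of −2 and 4 of 50 with −1 were called, with 2 false calls among 2125. The changed features were drawn from all levels, including very low ones, so among features at large many falls of that size are missed. The share missed among names with the control level of the 48 was not simulated.

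Features were placed on R64 by the annotation (6001) or as a reading frame of the deposited length (583); 543 were not placed. Base windows and positions come from the RefSeq R64 genome. Names printed with values are the 12 with the highest control mean, the 6 largest rises and falls in potassium, every name called, the 4 nearest the limit on each side, list members, and names opposite these; FPR3, FPR4, RAD17, XBP1, the p-values of the remaining names and the purine-window genes outside the 48 were added after their values were seen. The 48 names and the gene lists were chosen with earlier results of these data known. Promoters were not analysed here.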

Additional observations from a re-analysis of the deposited data

How the results depend on the processing

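Of the potassium counts, 107 features were lower and 110 higher in all. With library size alone these were 41 lower and 70 higher, and without a filter 72 were higher; leaving out 1 library gave 24 to 123 lower and 37 to 108 higher. Of the 48 names, 13 were lower, against 4 with library size alone and 2 to 15 without 1 library. DESeq2 called 16, limma 12 or 18, the 2-group fit 14, and scaling over features opposite a gene or no filter 9. The replicate block called 15, the 13 plus FPR4 and RAD17, and changed no other call of the 48. The number of names that met the rule was 15 with library size alone, 19 with scaling over features opposite a gene, 61 with TMM, 60 and 33 with control levels of 10 and 30, 77 and 35 with ratios of 2 and 4, and 60 to 69 without 1 library. The median of the 48 ran from −0.87 to −1.57. Of 494 values for 33 named genes, 415 kept direction and call, 57 lost the call, 6 gained it and 16 turned direction, all uncalled and in 6 names. CDC19 was −0.01 with RLE factors and with DESeq2, −0.00 without a filter, and −0.06 to 0.11 with 1 library left out. ENA1 was 0.05 with library size alone, 0.01 with scaling over features opposite a gene and −0.63 to 0.27 with 1 library left out. With the same 2 scalings YHL012W was 0.21 and 0.06 and FBA1 0.14 and 0.04, and with 1 library left out YHL012W ran from −0.67 to 0.18, CSS1 from −0.06 to 0.25 and ADH1 from −0.19 to 0.47. The causes were not tested. Names with few reads, such as DRS1 and NOP7, limit precision, and the potassium call of the 48 leans on potassium library 1 and both control libraries.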
